A study of Mus musculus with 4 samples.

Results

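The nucleus-encoded machinery that copies and transcribes mitochondrial DNA was examined in small intestinal epithelium of mouse embryos with and without Yy1, through 10 genes. They were Tfam, Tfb1m, Tfb2m, Polrmt, Lrpprc, Slirp, Polg, Twnk, Ssbp1 and Top1mt. Every probe set whose only platform gene symbol was one of these names was taken, which gave 19 probe sets out of 34945 with 1 symbol, and 10 genes out of 18193. Expression was read on 4 Affymetrix Mouse430_2 arrays, a platform on which each probe set is a group of short oligonucleotides. A probe set is directed against 1 transcript or, in some cases, against several. The 2 Yy1 knockout samples were Yy1f/f; Shh-Cre embryos at E15.5, in which a recombinase made from the Shh locus, active in gut endoderm, acts on floxed Yy1 alleles. The 2 control samples were YY1f/f littermates of the same age without Cre. Each sample was a pool of at most 2 embryos, and its epithelium had been enriched by magnetic selection for Epcam, an epithelial surface protein, from a stretch of gut that began at the stomach and ended at the caecum. Because no control carried Shh-Cre, the Cre allele and the loss of Yy1 cannot be told apart in what follows.

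Mitochondria keep a small circular genome that encodes core subunits of the respiratory chain and the ribosomal and transfer RNAs needed to translate them, while all proteins that copy and read this genome are made from nuclear genes. Tfam packages the DNA and bends it at the promoters, where the RNA polymerase Polrmt and the factor Tfb2m start transcription. The polymerase Polg, the helicase Twnk and the single-strand binding protein Ssbp1 form the replication fork, Top1mt relaxes the twisted DNA, and Lrpprc with its partner Slirp protects the finished messenger RNAs. Yy1 is a zinc finger transcription factor of the nucleus, known from muscle as a regulator of mitochondrial genes.

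Of the 10 machinery genes, 3 were lower in the knockout at an adjusted p under 0.05 and none was higher. The RNA-stabilising factor Lrpprc fell to 56.3% of the control level, the topoisomerase Top1mt to 63.5% and the packaging factor Tfam to 64.0%. The replication fork genes Polg, Twnk and Ssbp1, the polymerase Polrmt and the Lrpprc partner Slirp did not pass, with log2 changes between -0.07 and 0.15. Tfb1m (-0.22) and Tfb2m (-0.24) did not pass either. Across all 8626 tested genes, 21.7% were lower and 17.9% higher at the same threshold, so 3 of 10 lower (30%) is near the background of these arrays. The median log2 change was -0.14 over the 10 genes and -0.03 over all tested genes. Each change is a difference of mean log2 values, knockout minus control, tested with limma, a linear model that shares information on the spread across all probe sets, with Benjamini-Hochberg adjustment over all tested probe sets. A gene stands for its brightest tested probe set, and all 10 genes had one. At an unadjusted p under 0.05 limma gave the same 3 genes lower and 0 higher.

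The promoters of Lrpprc and Tfam, which fell, and of Slirp, the binding partner of Lrpprc, which did not pass, are printed to show the sequence in front of changed genes beside that of a partner gene. They are 250 bases before the start site on the coding strand, 5′ to 3′, from RefSeq (GRCm38.p6). Capitals mark matches to the YY1-type motif AANATGGC or the ETS-type motif CCGGAAG on either strand. Tfam lies at chr10:71238045-71238294 (minus strand), Lrpprc at chr17:84790787-84791036 (minus strand) and Slirp at chr12:87443646-87443895 (plus strand). The Tfam window precedes a start site at 71238044, while the annotated gene begins at 71238328, so this window lies within the annotated gene.
Tfam: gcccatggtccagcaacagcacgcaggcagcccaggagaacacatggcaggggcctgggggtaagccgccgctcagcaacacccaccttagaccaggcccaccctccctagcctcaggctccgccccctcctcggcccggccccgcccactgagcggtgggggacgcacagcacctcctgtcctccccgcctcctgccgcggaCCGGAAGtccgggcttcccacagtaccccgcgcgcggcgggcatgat
Lrpprc: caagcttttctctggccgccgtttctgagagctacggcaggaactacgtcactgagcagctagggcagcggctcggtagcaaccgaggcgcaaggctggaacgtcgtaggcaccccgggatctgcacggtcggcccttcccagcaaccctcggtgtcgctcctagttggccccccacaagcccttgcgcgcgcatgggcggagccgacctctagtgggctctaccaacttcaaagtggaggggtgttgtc
Slirp: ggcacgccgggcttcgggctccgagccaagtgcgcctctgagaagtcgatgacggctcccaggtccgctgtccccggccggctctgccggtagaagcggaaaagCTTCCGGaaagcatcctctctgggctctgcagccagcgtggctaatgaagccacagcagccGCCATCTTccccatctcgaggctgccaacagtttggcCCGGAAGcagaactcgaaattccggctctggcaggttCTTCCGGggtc

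Promoter windows of 9 of the 10 genes were matched by symbol in the RefSeq table, with 2 start sites for Twnk, and Top1mt was not among them. Each window ran from 250 bases before to 50 bases after the start and was searched on both strands for AANATGGC and for CCGGAAG, which share no overlap in the printed stretches. The ETS-type motif was found in 6 of the 9 genes (Tfam, Polrmt, Slirp, Polg, Ssbp1 and, at the second of its start sites only, Twnk), and 8.86% of all 32851 promoter windows hold it. In Tfam the match began 47 bases before the start, in Ssbp1 also 47, in Polrmt 43 and in Polg 38. These distances count from the start site of each window. The annotated gene begins further upstream in each of these genes, at chr7:79467911 against a start site of 79466273 in Polg. The YY1-type motif was found in Slirp alone among the 9, at 85 bases before and 31 bases after the start, and 6.05% of all windows hold it. Of the 3 genes that fell, Tfam thus had an ETS-type match, Lrpprc had neither motif in this window, and Top1mt was not searched. A match describes the letters only, and no binding was measured here.

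The knockout samples were lower in Yy1 itself on all 4 of its probe sets. Among them, 1457834_at entered the test through the controls alone and could not have been called higher. The brightest of the 4 (1422569_at) read 7.27 and 6.81 in the knockouts, against 8.79 and 8.82 in the controls. Its change was -1.77 on the log2 scale (SE 0.17, limma adjusted p = 0.00209). Without control 2 that change was -1.76 with an adjusted p of 0.0504. All values are log2 intensities as normalized by the authors with GCRMA, with a common lowest value of 2.36, and 35.6% to 36.4% of an array's probe sets reached 4, the level needed on at least 2 arrays for a test. Over tested probe sets, Pearson's r was 0.989 between the knockouts, 0.990 between the controls and at most 0.925 between genotypes. Markers of other cells differed between the genotypes as well. The mean log2 level of 14 mesenchyme markers was 5.42 and 5.21 in the knockouts, against 3.96 and 3.84 in the controls. All 9 tested mesenchyme markers were higher, although 5 of them entered the test through the knockouts alone and could not have been called lower, while Pdgfra, Prrx1, Thy1, Twist1 and Twist2 stayed under 4 on every array. The mean of 8 smooth muscle markers was 7.66 and 7.59 in the knockouts, against 5.01 and 4.42 in the controls, with all 7 tested markers higher (1 of them, Cnn1, tested through the knockouts alone) and Des under 4 on every array. Of 7 leukocyte markers 3 were tested and higher (mean log2 levels of 4.35 and 4.26 in the knockouts, against 3.41 and 3.26 in the controls), of 5 matched erythroid markers 2 (4.86 and 4.70 in the knockouts, against 3.14 and 3.33 in the controls), and of 6 stomach and pancreas markers 3 (5.53 and 5.23 in the knockouts, against 4.31 and 4.30 in the controls). These means run over all matched markers of a list, tested or not. Of the tested erythroid markers, Hbb-y read 9.78 and 9.65 in the knockouts, against 5.78 and 6.14 in the controls, on its brightest probe set. Hba-x read 7.11 and 6.55 in the knockouts, against 2.52 and 3.21 in the controls. The leukocyte marker Csf1r and the erythroid marker Hba-x were tested through the knockouts alone. The leukocyte markers Aif1, C1qa, Cd52 and Ptprc, the erythroid markers Alas2, Hbb-bh1 and Slc4a1 and the stomach markers Barx1, Sox2 and Tff2 were under 4 on every array. All 6 endothelium markers and 3 of 4 matched markers of enteric neurons and glia were under 4 on every array. Of 4 mesothelium markers 1 was tested, and it was lower. General epithelial markers averaged 9.82 and 9.89 in the knockouts, against 10.09 and 10.18 in the controls, so their level bears out the labelled tissue. Of these 7 markers, 3 were lower in the knockout at an adjusted p under 0.05 (Epcam at -0.44, Cldn7 at -0.73, Elf3 at -0.89). Krt18 was higher (0.67), and the other 3 did not pass. All 6 markers of intestinal epithelium were lower in the knockout, by a median log2 change of -1.16. The part of these shifts in the changes of the machinery genes was not tested, and fewer cells of a type cannot be told apart from less RNA per cell in such samples. RNA integrity was read from Gapdh, as the log2 signal of its 3′ control probe set less that of the 5′ one, which was 1.60 and 1.65 in the knockouts, against 1.31 and 1.37 in the controls, and its part in the results was not tested either. The same measure for actin was -0.08 and -0.07 in the knockouts, against -0.10 and -0.13 in the controls.

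**Figure D1:**
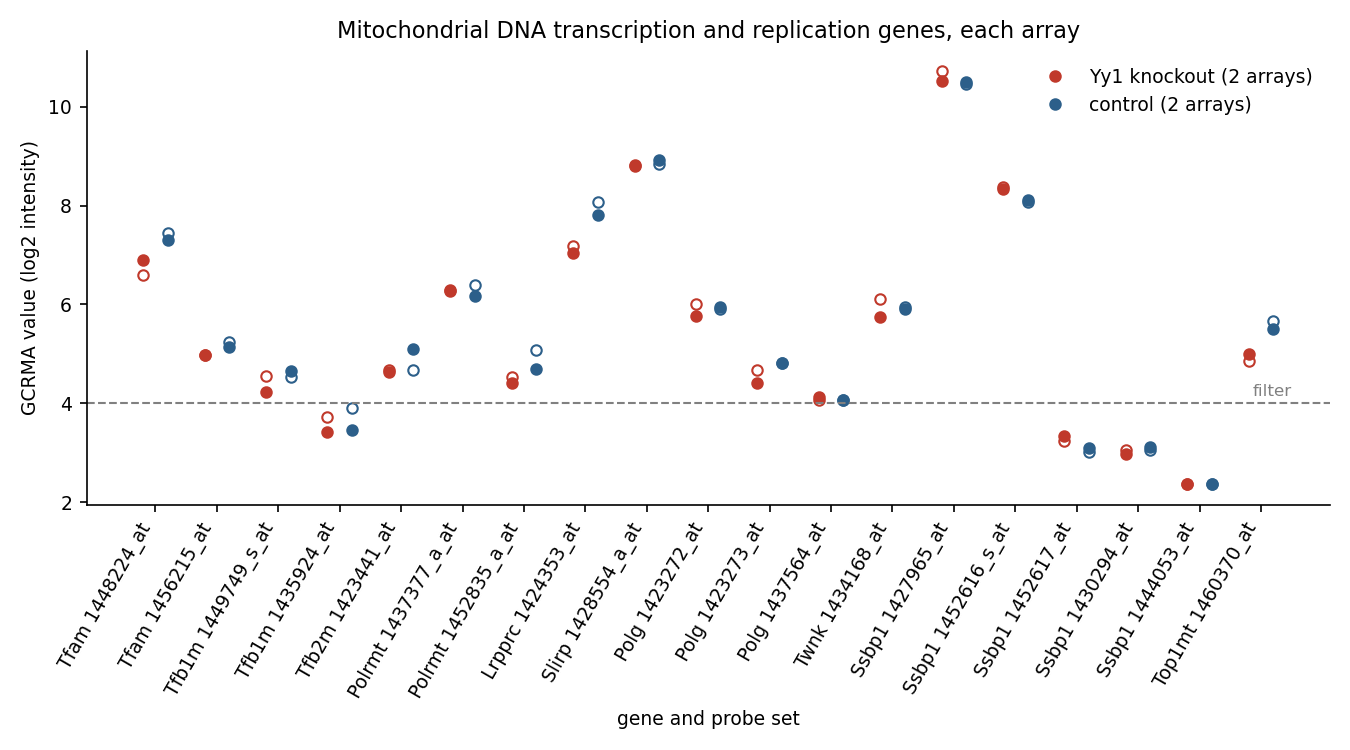
Log2 GCRMA values (vertical axis) of all 19 probe sets of the 10 genes on the 2 Yy1 knockout arrays (red, left of each pair) and the 2 control arrays (blue, right), with filled points for replicate 1 and open points for replicate 2. The dashed line is the level of 4 used by the filter, and the knockouts sit below the controls most clearly for Lrpprc (means 7.11 and 7.94), Top1mt (4.93 and 5.58) and the brighter Tfam probe set (6.74 and 7.38).

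Among the transcription genes, Tfam changed and its promoter partners did not pass the test. The brighter Tfam probe set (1448224_at) read 6.89 and 6.59 in the knockouts, against 7.31 and 7.45 in the controls. Both knockouts lay under both controls, and the log2 change was -0.64 (SE 0.14, 95% interval -1.0 to -0.29, limma adjusted p = 0.0206). The dimmer probe set (1456215_at) read 4.97 in both knockouts, against 5.14 and 5.23 in the controls. Its groups did not overlap either, but its change of -0.21 (adjusted p = 0.159) did not pass, so the size of the Tfam change differs between its probe sets. Averaged over both, it was -0.43. On 10 of 10 genes the brightest probe set reached the filter in both genotypes, so no direction was fixed by the filter.

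Tfb2m, the initiation factor that opens the promoter DNA for the polymerase, had 1 probe set near the filter (1423441_at). It read 4.63 and 4.67 in the knockouts, against 5.10 and 4.67 in the controls, so only control 1 stood apart. Its log2 change of -0.24 (95% interval -0.65 to 0.17, limma adjusted p = 0.299) did not pass. Tfb1m, a methyltransferase of the small mitochondrial ribosomal RNA and a paralog of Tfb2m, read 4.23 and 4.54 in the knockouts, against 4.66 and 4.54 in the controls, on 1449749_s_at, a probe set whose suffix marks probes shared between transcripts. The groups overlapped, with a change of -0.22 (95% interval -0.58 to 0.14, adjusted p = 0.283). A further Tfb1m probe set (1435924_at) stayed under 4 on every array and was not tested.

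Polrmt, the mitochondrial RNA polymerase, gave different readings on its probe sets. The brighter one (1437377_a_at) read 6.26 and 6.30 in the knockouts, against 6.17 and 6.39 in the controls. The knockouts lay between the controls, and the log2 change was 0.003 with a 95% interval of -0.30 to 0.30 (limma adjusted p = 0.991). The dimmer one (1452835_a_at) read 4.42 and 4.53 in the knockouts, against 4.69 and 5.07 in the controls. These groups did not overlap, yet the change of -0.41 (SE 0.16, unadjusted p = 0.0450) did not pass after adjustment (0.0960). On neither probe set did Polrmt pass, and the interval on the dimmer one ran from -0.80 to -0.01.

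Lrpprc, a pentatricopeptide repeat protein that holds mitochondrial messenger RNAs in a stable, polyadenylated form, had the largest change of the 10 genes. Its only probe set (1424353_at) read 7.03 and 7.19 in the knockouts, against 7.81 and 8.08 in the controls. The gap between the genotypes was wider than the spread within either, with a log2 change of -0.83 (SE 0.14, 95% interval -1.17 to -0.49, limma adjusted p = 0.00879). Slirp, the small RNA-binding protein that joins Lrpprc in a complex, read 8.80 and 8.82 in the knockouts, against 8.91 and 8.85 in the controls (1428554_a_at). The Slirp groups did not overlap but lay close together, at a change of -0.07 (95% interval -0.33 to 0.18, adjusted p = 0.605), and the sign turned with quantile normalization (0.01). The 95% intervals of Lrpprc and Slirp do not overlap, and the difference between the changes was not tested.

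Of the replication fork genes, none passed the test. Polg, the catalytic subunit of the mitochondrial DNA polymerase, read 5.77 and 6.02 in the knockouts, against 5.94 and 5.90 in the controls, on its brightest probe set (1423272_at). The controls lay within the range of the knockouts, and the log2 change was -0.03 (95% interval -0.34 to 0.28, limma adjusted p = 0.878). Its further probe sets had changes of -0.26 (1423273_at, adjusted p = 0.170) and 0.04 (1437564_at, adjusted p = 0.797).

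Twnk, the helicase that unwinds the DNA ahead of Polg, read 5.74 and 6.11 in the knockouts, against 5.91 and 5.96 in the controls (1434168_at). The groups overlapped, the change was -0.01 (95% interval -0.39 to 0.37, limma adjusted p = 0.972), and the SD was 0.26 in the knockouts and 0.03 in the controls (n = 2 each). The signs of the Polg and Twnk changes turned positive with median centring and with quantile normalization, at sizes of at most 0.03, so neither gene has a direction here.

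Ssbp1, which coats the unwound strand at the fork, had 5 probe sets, of which 2 were tested. The brighter (1427965_at) read 10.52 and 10.71 in the knockouts, against 10.50 and 10.45 in the controls, a log2 change of 0.15 (95% interval -0.14 to 0.44, limma adjusted p = 0.366). The other (1452616_s_at) read 8.33 and 8.37 in the knockouts, against 8.11 and 8.08 in the controls, a change of 0.25 (SE 0.10, unadjusted p = 0.0496, adjusted p = 0.104). On both of them the knockouts lay over the controls, and neither change passed. The other 3 Ssbp1 probe sets stayed under 4 on every array.

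Top1mt, the mitochondrial topoisomerase, was the only member outside transcription and RNA stability to pass. Its probe set (1460370_at) read 5.0 and 4.85 in the knockouts, against 5.50 and 5.66 in the controls. The groups were well apart, with a log2 change of -0.65 (SE 0.12, 95% interval -0.95 to -0.36, limma adjusted p = 0.0115). The groups of 6 of the 10 genes did not overlap, 5 with the knockout lower and 1 with it higher, and of all tested genes 75% did not overlap, 39.6% with the knockout lower and 35.4% with it higher.

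**Figure D2:**
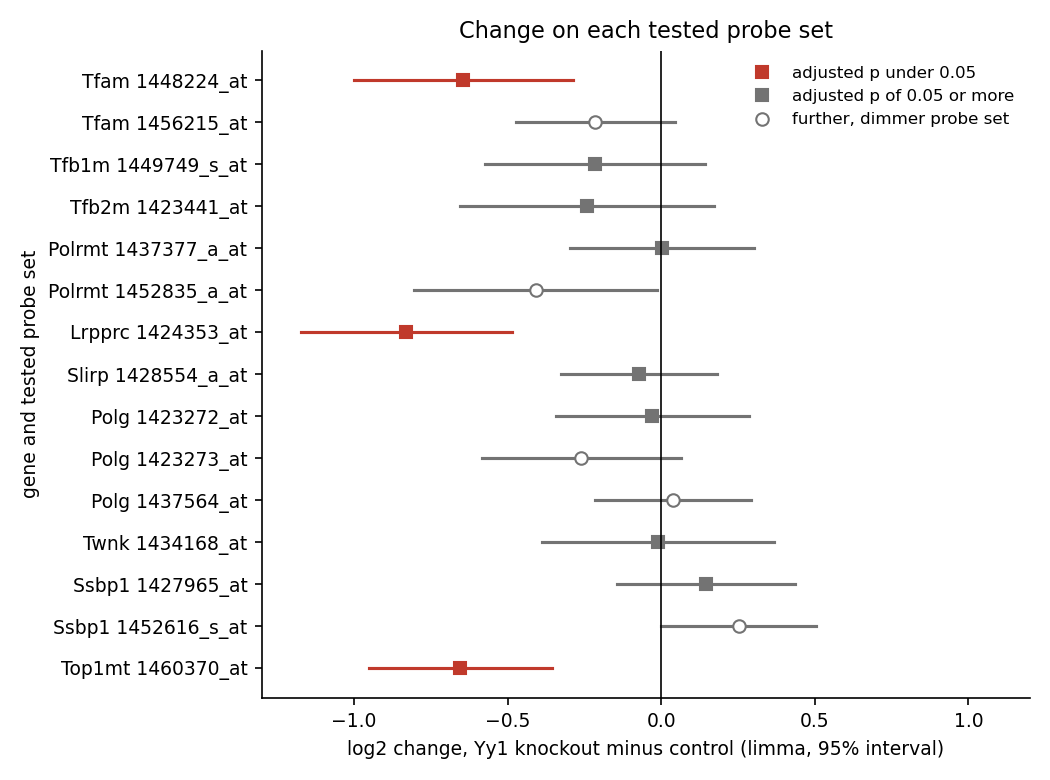
Log2 change, Yy1 knockout minus control, with its 95% interval from limma (horizontal axis) for the 15 tested probe sets of the 10 genes. Squares are the brightest probe set of a gene, open circles its further probe sets, and red marks an adjusted p under 0.05, which Lrpprc (-0.83), Top1mt (-0.65) and the brighter Tfam probe set (-0.64) reached.

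The calls on these 3 genes depended on having all 4 arrays. Lrpprc had an adjusted p of 0.0711 without knockout 1, 0.0641 without knockout 2, 0.0406 without control 1 and 0.0741 without control 2. Tfam had 0.0468, 0.0972, 0.0908 and 0.142 in the same order. Top1mt had 0.0531, 0.0817, 0.0562 and 0.0912, and so passed only with all 4 arrays. The sign of each change held in all of these fits, with Lrpprc between -0.96 and -0.70, Tfam between -0.79 and -0.49 and Top1mt between -0.73 and -0.58. Over all genes the number of calls also fell in fits of 3 arrays, to between 444 and 896 lower genes, against 1871 with all arrays.

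**Figure D3:**
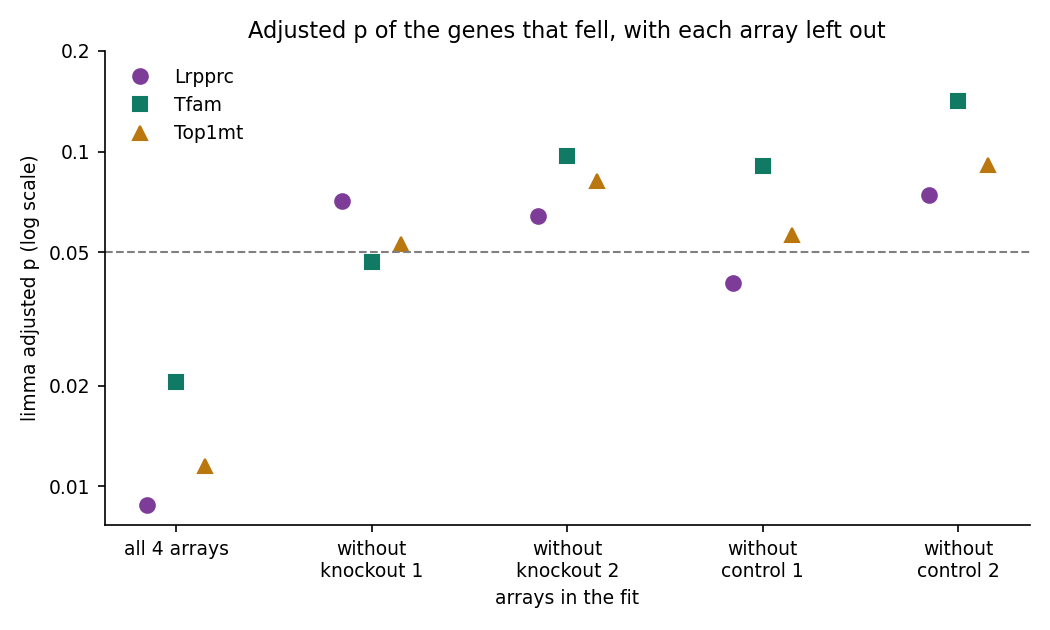
Limma adjusted p on a log scale (vertical axis) of Lrpprc (circles), Tfam (squares) and Top1mt (triangles) with all 4 arrays and with each array left out in turn (horizontal axis). The dashed line is 0.05: all 3 genes lie under it with all arrays, and none does without knockout 2 or without control 2.

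The other genes of mitochondrial DNA upkeep and expression moved in both directions. Of 63 listed genes 61 had a probe set of 1 symbol and 51 were tested, of which 10 fell, 6 rose and 35 did not pass. That is 19.6% lower and 11.8% higher, against 21.7% and 17.9% over all tested genes, with a median log2 change of -0.05. For 3 of the 10 that fell, neither knockout array reached the filter level, so a rise could not have been tested. Of 7 tested genes of replication and the nucleoid, none passed in limma and none had an unadjusted p under 0.05. They included Polg2, the accessory subunit of the polymerase (0.23, adjusted p = 0.270), and Atad3a, a membrane protein near nucleoids (-0.18, adjusted p = 0.256). Of 3 tested genes of nucleotide supply none passed in limma, and 1, the pyrimidine nucleotide carrier Slc25a36 (0.50, adjusted p = 0.0522), had an unadjusted p under 0.05. Polg2, Atad3a and Slc25a36 were picked out after their values were seen.

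Of 6 further transcription genes, 1 fell and 2 rose (16.7% and 33.3%, against 21.7% and 17.9% of all tested genes). The ribosomal protein Mrpl12, which in human cells also binds the polymerase, read 8.79 and 8.88 in the knockouts, against 9.29 and 9.30 in the controls (-0.46, SE 0.10, limma adjusted p = 0.0214). Mterf1a, of the family of mitochondrial transcription termination factors, read 4.45 and 4.87 in the knockouts, against 4.05 and 4.03 in the controls (0.62, SE 0.16, adjusted p = 0.0349). With an offset of 16 added before the log2 step, the Mterf1a change was 0.35 and did not pass (adjusted p = 0.0510). Mterf3 of the same family read 5.83 and 5.88 in the knockouts, against 5.27 and 5.44 in the controls (0.50, SE 0.11, adjusted p = 0.0232). The groups of each of these genes did not overlap. The elongation factor Tefm (-0.13, adjusted p = 0.427), Mterf2 (-0.20, adjusted p = 0.204) and Mterf4 (0.05, adjusted p = 0.710) did not pass.

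Of 35 tested genes of RNA processing and decay, 9 were lower and 4 higher (25.7% and 11.4%, against 21.7% and 17.9% of all tested genes), with a median log2 change of -0.05. Of the 9, 3 entered the test through the controls alone and could not have been called higher. The largest changes were those of Rpusd4, Hsd17b10 and Nsun4. Rpusd4, a pseudouridine synthase of mitochondrial RNA, read 3.21 and 3.35 in the knockouts, against 4.81 and 4.82 in the controls (-1.54, SE 0.11, limma adjusted p = 0.00109). Neither knockout value reached the filter level, and Rpusd4 is 1 of those 3 genes. With the offset of 16 its change was -0.78.

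Hsd17b10, a dehydrogenase that is also a subunit of the mitochondrial RNase P, read 6.70 and 6.27 in the knockouts, against 7.58 and 7.59 in the controls (-1.10, SE 0.16, limma adjusted p = 0.00662). Its further probe set changed by -1.47 (adjusted p = 0.00370). The nuclease subunit of the same enzyme, Prorp, fell by 0.45 (adjusted p = 0.0215), while the subunit Trmt10c had a change of -0.13 (adjusted p = 0.401). Among ribosomal RNA methyltransferases, Nsun4 (-1.0, adjusted p = 0.00314), Mrm1 (-0.79, adjusted p = 0.0138) and Mrm2 (-0.73, adjusted p = 0.00694) fell. Mrm3 (-0.34, adjusted p = 0.116) and Tfb1m (-0.22, adjusted p = 0.283) did not pass. Neither did Trmt61b, a further RNA methyltransferase of the list (0.06, adjusted p = 0.681). Mrm2 was tested through the controls alone. With the offset of 16 the changes of Nsun4 and Mrm2 were -0.59 and -0.38. The RNA-degrading pair of Pnpt1 (-0.58, adjusted p = 0.0105) and its helicase partner Supv3l1 (-0.48, adjusted p = 0.0199) fell as well (Supv3l1 at -0.30 with the offset), although a further Pnpt1 probe set did not pass (-0.35, adjusted p = 0.144). Prorp, Trmt10c, Mrm1, Mrm2, Mrm3, Trmt61b, Pnpt1 and Supv3l1 were picked out after their values were seen.

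Of the 16 other pathway genes that passed, 8 lost the call without knockout 1, 11 without knockout 2, 13 without control 1 and 14 without control 2, and no sign turned. Rpusd4 and Nsun4 passed in all of these fits. The Hsd17b10 call was lost when control 1 (adjusted p = 0.0680) or control 2 (0.0805) was left out. Mterf1a passed only without knockout 1 (0.0385) among the fits of 3 arrays, and Mterf3 and Mrpl12 in none of them (0.0740 to 0.117).

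**Figure D4:**
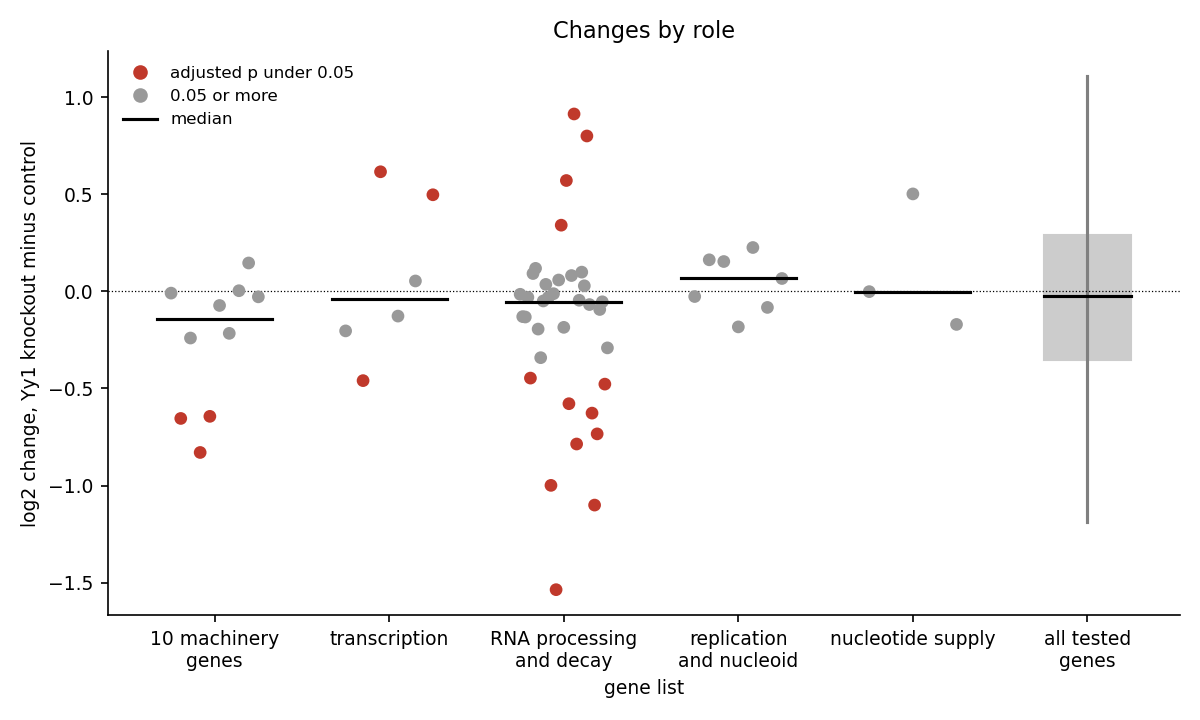
Log2 change, Yy1 knockout minus control (vertical axis), of each tested gene by list (horizontal axis), with red for an adjusted p under 0.05 and a black line for the median. At the right, the box spans the 25th to 75th percentile of all 8626 tested genes (-0.36 to 0.29) and the line their 5th to 95th percentile (-1.19 to 1.11), a range within which all 10 machinery genes lie.

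One transcript of the mitochondrial genome itself could be followed. The probe set 1426088_at carries the platform symbol ND5, a complex I subunit encoded in mitochondrial DNA, and read 11.96 and 12.09 in the knockouts, against 11.98 and 12.02 in the controls. The groups overlapped, and the log2 change of 0.02 had a 95% interval of -0.25 to 0.29 (limma adjusted p = 0.904). The other 14 listed transcripts of the mitochondrial genome were not analysed here, so this value speaks for ND5 alone.

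In pattern over the 4 arrays, the genes most like Lrpprc were Slc40a1, Met, Blnk, Atg9a and Sepsecs. Likeness was the Euclidean distance between log2 values centred on each gene's mean, which lay between 0.04 and 0.05 for these 5. Slc40a1, the cellular iron exporter, read 6.76 and 6.89 in the knockouts, against 7.54 and 7.83 in the controls. With 4 arrays in 2 groups, such a pattern amounts to a like difference between the genotypes and a like order within them.

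Changes of at least 2-fold are listed in the authors' deposited table, which held none of the 19 probe sets of the machinery genes. It did hold 4 probe sets of the other pathway genes. In the authors' deposited table Rpusd4 changed by -1.54, the Hsd17b10 probe sets by -1.47 and -1.10, and a Nsun4 probe set (1429110_a_at) by -1.18. That Nsun4 probe set was under the filter and not tested here. The tested one (1424839_a_at) changed by -0.9992 here, just short of 2-fold, and was not in the authors' list.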

How the data were processed

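Arrays were processed by the authors, who deposited log2 intensities for 45101 probe sets made with GCRMA, a background correction by probe sequence with normalization between arrays, per the submitters' processing notes. Their deposited list gives log2 fold changes with p-values, raw and adjusted, and 2 scores not used here, per the file headers. For the arrays, the sources used here name no tool version or genome build. The 64 control probe sets were left out. A probe set was tested at a log2 value of at least 4 on at least 2 arrays (16887 probe sets), without covariates, in limma 3.58.1 (lmFit, eBayes; R 4.3.3). A gene stood for its brightest tested probe set of 1 symbol. The procedure was run on simulated data, whose changes were larger than those of the machinery genes and touched a smaller share of probe sets. That run does not measure how well calls of the present size are recovered. Members, gene lists and the naming rule (all members, up to 3 changed genes of each further list, ND5, Yy1 and the 5 genes most like the most changed member) were chosen with earlier results of these data known. P-values measure the spread between pools of embryos. Same-numbered samples did not deviate together (r = -0.31), so no pairing was fitted in the results given. With 2 arrays per genotype, samples with crossed numbers have the same r with a positive sign, and its source was not tested. Alternatives covered the filter, an offset, 2 scalings, a trended robust variance, fits without each array, a replicate block, averaged probe sets and a test against a 1.2-fold change.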

Additional observations from a re-analysis of the deposited data

How the results depend on the processing

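The count of 3 machinery genes lower was equal or within 1.5 times under 9 of 15 other settings, and 0 were higher under all of them. Among the 9 was a filter at a log2 value of 6, under which 5 machinery genes were tested and 2 were lower. Top1mt stayed under 6 on every array and was not tested there. Without a filter, limma called 0 machinery genes (3 lower at an unadjusted p under 0.05), 0 other pathway genes lower and 0 higher (12 and 5 unadjusted) and 48 lower and 39 higher genes in all, and Yy1 at -1.77 had an adjusted p of 0.123. With the test against a 1.2-fold change, 1 machinery gene (Lrpprc, adjusted p = 0.0263) was lower, 6 other pathway genes were lower and 1 higher, and 1036 genes in all were lower and 823 higher. With a filter at a log2 value of 6, fewer genes were tested. There 4 of 20 tested other pathway genes were lower, against 10 of 51 in the main fit. Over all genes 915 of 4864 were higher, against 1545 of 8626. Leaving out each array in turn gave 0 to 1 machinery genes lower (3 to 4 at an unadjusted p under 0.05), 2 to 5 other pathway genes lower and 0 to 3 higher, 444 to 896 genes in all lower and 353 to 827 higher, and a Yy1 change of -2.0 to -1.54, with an adjusted p of 0.0504 at -1.76 without control 2. With 3 arrays, the lone array of a genotype is assumed to vary like the others. Signs of changes near 0 turned. Polrmt was at -0.20 with averaged probe sets and between -0.10 and 0.11 with an array left out. Polg was at 0.0065 with median centring, 0.0086 with quantile normalization and between -0.15 and 0.093 with an array left out. Twnk was at 0.026 and 0.033 with the same scalings and between -0.19 and 0.17 with an array left out, and Slirp was at 0.0074 with quantile normalization. With the replicate number as a block, 3 machinery genes were lower, 9 other pathway genes lower and 5 higher, and 1587 genes in all lower and 1280 higher. With the numbers crossed, an alternative chosen after seeing the data, the counts were 3, 10 and 6, and 1924 and 1591. The causes of these differences were not tested beyond what fewer arrays, or more or fewer probe sets, in a fit entail. Signal close to the floor limits Tfb1m, Tfb2m and the dimmer probe sets. Top1mt, with readings of 4.85 to 5.66, was not far above it either. Its change lay between -0.73 and -0.46 over the alternatives.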

Other observations

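Among the 4 RNA processing and decay genes that rose, 2 did so on several probe sets; they were picked out after their values were seen. Angel2, which in human cells trims phosphates from the ends of mitochondrial RNAs, was higher in the knockout on all 5 of its tested probe sets, with log2 changes of 0.44 to 0.86 (limma adjusted p = 0.00486 to 0.0272). Dhx30, an RNA helicase of mitochondrial ribosome assembly, was higher on all 4 of its tested probe sets, with changes of 0.59 to 0.92 (adjusted p = 0.00313 to 0.0296). The Dhx30 probe set with the largest change, 1453251_at (0.92), entered the test through the knockouts alone and could not have been called lower. The oligoribonuclease Rexo2 read 8.51 and 8.37 in the knockouts, against 7.57 and 7.48 in the controls (0.91, adjusted p = 0.00374), and Ptcd1, a pentatricopeptide repeat protein, read 8.53 and 8.54 in the knockouts, against 8.22 and 8.16 in the controls (0.34, adjusted p = 0.0480). Without control 2 none of the 4 passed on its brightest probe set (adjusted p = 0.0560 to 0.178).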
